A study of Homo sapiens with 30 samples.

Results

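The regions described here are 1622 stretches of the genome that carried a MYC ChIP-seq peak in DMSO-treated cells, carried none in dTAG47-treated cells, and lay away from the start sites listed in the PRO-seq table. They were chosen from the deposited peak lists. Overlapping peaks of the DMSO libraries numbered 1 and 3 were merged into 4437 regions, a region seen in either library was kept if it overlapped no peak of any of the 3 dTAG47 libraries, and its midpoint had to be more than 1 kb from every PRO-seq start. The other regions were 2456 near a start with no dTAG47 peak, 285 near a start with a dTAG47 peak, and 74 away from starts with a dTAG47 peak. The peaks and the distances chose the members, so both are given as descriptions without a test.

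All samples came from G401, a human cell line from a malignant rhabdoid tumour of the kidney, a tumour type that has lost the SWI/SNF subunit SMARCB1. The ChIP-seq, ATAC-seq and PRO-seq libraries were from DTMYC cells, a G401 derivative in which the endogenous MYC gene was disrupted and MYC with an N-terminal HA and FKBP12-based degradation tag was supplied by a lentivirus. DTMYC cells received DMSO or 500 nM dTAG47, a compound that brings the tagged protein to a ubiquitin ligase, for 4 h before ChIP-seq (2 DMSO and 3 dTAG47 libraries) and PRO-seq (2 and 2), and for 24 h before ATAC-seq (3 and 3) and RNA-seq (3 and 3). Parental G401 cells, whose MYC is untagged, received DMSO or 500 nM dTAG47 for 24 h before RNA-seq (3 and 3) as the control for the compound. The labels name MYC as the ChIP antibody, whereas the deposited peak lists carry the name of the HA tag, and 3 IgG libraries are not analysed here. The labels do not say whether replicates were separate cultures, so every p-value measures the spread between these samples, which may be technical. MYC RNA was 1366 ± 46.2 CPM, the count scaled to the library's total (SD, n = 3), in DTMYC DMSO cells and 1410 ± 64.7 in dTAG47, and 235 ± 28.2 in parental DMSO cells. A loss of the protein by degradation would not show in these RNA values. The mesenchymal filament VIM was at 602 to 767 CPM over the 12 RNA libraries, and the blood cell genes PTPRC and CD3E were at or below 0.0227 CPM. The endothelial gene PECAM1 was at or below 0.103 CPM, and the epithelial genes EPCAM and CDH1 ranged from 0.114 to 2.39 and from 0.103 to 5.10 CPM. In DTMYC cells EPCAM and CDH1 averaged 0.144 and 0.220 CPM in DMSO and 0.338 and 0.463 in dTAG47, which did not pass the test (edgeR adjusted p = 0.0562 and 0.0684).

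MYC is a basic helix-loop-helix leucine zipper protein that binds DNA as a dimer with MAX. The dimer recognises the E-box CACGTG and binds some variants of it, and it is found mostly in open chromatin at active promoters, with a smaller share of its sites at enhancers. MYC is best known for raising the transcription of genes for ribosome production, nucleotide synthesis and growth. It also occupies RNA polymerase III genes such as those of tRNAs, and it interacts with SWI/SNF, the remodelling complex that opens chromatin.

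The sequences of 7 members show the kinds of DNA found at these sites. Each is a stretch of 100 bases of the plus strand of GRCh37, the build of the files, read 5′ to 3′, with the motif in capitals. The first 5 are from the 10 members seen in both DMSO libraries whose lower score was highest, and capitals mark the E-box CACGTG.
FCGR2A upstream, chr1:161424233-161424332: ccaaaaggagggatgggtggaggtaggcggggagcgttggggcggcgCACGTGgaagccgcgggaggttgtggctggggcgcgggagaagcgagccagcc
RABL5 near, chr7:100951904-100952003: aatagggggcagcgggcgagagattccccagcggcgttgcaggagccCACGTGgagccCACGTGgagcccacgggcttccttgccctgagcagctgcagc
LARP1 start, chr5:154134613-154134712: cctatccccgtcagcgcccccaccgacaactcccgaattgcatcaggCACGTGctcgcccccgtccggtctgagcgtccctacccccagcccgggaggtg
RIMBP2 intron, chr12:131199020-131199119: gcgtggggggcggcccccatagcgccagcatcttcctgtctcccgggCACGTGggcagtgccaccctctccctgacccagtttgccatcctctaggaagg
DUS3L near, chr19:5802218-5802317: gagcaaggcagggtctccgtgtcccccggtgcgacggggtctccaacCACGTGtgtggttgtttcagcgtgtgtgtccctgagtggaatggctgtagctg
The next is the member with the highest score of all, which lay in the processed pseudogene EEF1A1P5 and holds no E-box, so that nothing is in capitals.
EEF1A1P5, chr9:135895612-135895711: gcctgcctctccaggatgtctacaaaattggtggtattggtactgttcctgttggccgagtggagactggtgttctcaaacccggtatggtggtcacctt
The last is a member near BTNL9 in which capitals mark the B box, a control element inside tRNA genes, here read on the minus strand.
BTNL9 near, chr5:180524440-180524539: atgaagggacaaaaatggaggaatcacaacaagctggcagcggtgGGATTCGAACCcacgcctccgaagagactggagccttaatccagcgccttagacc
A second member upstream of FCGR2A, at chr1:161438796-161439441, holds the same 100 bases as the first at chr1:161439024-161439123, so a read from one of these repeats can be placed at the other.

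Most members were called in a single library. Of the 1622 regions, 1187 (73.2%, 95% interval 71.0 to 75.3) were in DMSO library 1 alone, 228 (14.1%, 12.4 to 15.8) in DMSO library 3 alone, and 207 (12.8%, 11.2 to 14.5) in both. Intervals on shares are exact Clopper-Pearson intervals and cover counting error only. The lists differed in length, with 4010 peaks in DMSO library 1 and 1519 in DMSO library 3, against 408, 7 and 193 in the dTAG47 libraries. Without DMSO library 1 the rule gave 449 regions, and without DMSO library 3 it gave 1400. How deeply these libraries were sequenced is unknown, so a region counts as lost when no peak was called there, and a smaller signal below the threshold of the caller cannot be told apart from none.

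The score of a peak is the value the authors deposited, which for these lists is 10 times the −log10 q value of the caller. Members present in DMSO library 1 had a median score of 53 (13 to 3393), and those in DMSO library 3 had a median of 44 (13 to 878). Members found in both libraries scored higher, with medians of 88 and 57. They were also wider, at a median of 706 bases against 456 for library 1 alone and 396.5 for library 3 alone. The median GC content was 64.7% for members in both libraries, 57.0% for library 1 alone and 55.4% for library 3 alone.

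The 10 named members in both libraries all held at least 1 E-box. The highest lower score was 223 in DMSO library 1 and 224 in library 3, for the region at chr19:5801850-5803020 near DUS3L, a tRNA-modifying enzyme gene. It lay 11186 bases from that PRO-seq start and overlapped an ATAC peak in 1 of 6 libraries. The pair upstream of FCGR2A, at chr1:161423916-161424607 and chr1:161438796-161439441, scored 362 and 155, and 520 and 140, in libraries 1 and 3. Both had ATAC peaks in all 6 libraries, with ATAC scores of 1200 to 2912 and 1271 to 3521. A region at chr7:1781550-1782415, in an intron of ELFN1, held 4 E-boxes and scored 260 and 153. The region at chr7:100951588-100952305, in an intron of the long non-coding gene EMSLR, held 2 E-boxes and scored 221 and 140. That at chr12:131198595-131199682, in an intron of RIMBP2, scored 170 and 131 and lay 124681 bases from the PRO-seq start of STX2, the farthest of the 10.

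Distance from a PRO-seq start did not always mean distance from an annotated start. Among the 10, the regions at RRM2, EIF4A1, RNF220 and LARP1 had midpoints 1, 48, 103 and 333 bases from an annotated protein-coding start. RRM2 encodes a subunit of ribonucleotide reductase, and its region, at chr2:10260534-10261190, scored 212 and 155 and lay 1833 bases from the start used in the PRO-seq table. LARP1, an RNA-binding protein of ribosomal protein mRNAs, had its region at chr5:154134174-154134761 with scores of 293 and 134. The EIF4A1 region, at chr17:7476743-7477678, scored 225 and 166 and overlapped no ATAC peak in any of 6 libraries. RNF220, a ubiquitin ligase gene, had its region at chr1:45097509-45098009 with scores of 184 and 169.

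The same held over the whole set. The annotation, GENCODE 44 on GRCh37, covered 1486 members, and the other 136 (8.38%) lay on 58 contigs outside it. Of the 1486, 743 (50%, 47.4 to 52.6) had a midpoint within 1 kb of some annotated transcript start, and 467 (31.4%, 29.1 to 33.9) within 1 kb of a protein-coding start. Among members in both libraries, 116 of 177 (65.5%) were within 1 kb of an annotated start and 61 were farther from every one. So the label "distal" holds by the rule against the PRO-seq starts for these 1486 members, and against the annotation for 743 of them. No PRO-seq start was listed on the contigs of the other 136, which passed the distance rule for that reason. By position, 622 midpoints (41.9%) were intronic, 329 (22.1%) intergenic, 321 (21.6%) in an exon of a protein-coding gene and 214 (14.4%) in an exon of another gene. The median distance to the nearest PRO-seq start was 16859.5 bases (quartiles 3841 and 48650), and it was 9401 bases for members in both libraries. A distance of 1 to 5 kb was found for 428 members (28.8%), 10 to 50 kb for 540 (36.3%) and over 100 kb for 184 (12.4%). The members closest to the limit were near IGF2BP1, AK3 and MCL1 at 1010, 1011 and 1018 bases, and the regions just outside it were near PTGR2, ADAM10 and EP400NL at 1000, 998 and 996 bases. Chromosome 19 held the most members per Mb (1.84), followed by chromosomes 17 (1.11) and 22 (0.994), and X held 0.116.

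The highest scores were in exonic sequence of abundant genes and their copies. Processed pseudogenes are copies of spliced mRNAs inserted back into the genome, without introns. A midpoint in a processed pseudogene was found for 127 members (8.55% of 1486). Of these, 125 were in DMSO library 1 alone, 2 were in both libraries and none of the 228 were in library 3 alone, which allows a share of up to 1.60%. In the whole peak lists the share was 3.70% in DMSO library 1, 0.549% in DMSO library 3 and 0.693% to 0.795% in the 6 ATAC lists. The 125 members of library 1 included 116 with no ATAC peak in any library. Among the members of library 1 alone, 8 of the top 10 by score and 37 of the top 50 were in a processed pseudogene, 10 and 46 overlapped no ATAC peak, and 1 and 5 held an E-box.

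The top scores were 3393 at EEF1A1P5 (chr9:135894821-135896504), 3044 at RPL13AP5 (chr10:98510033-98510663) and 2088 at FTLP3 (chr20:4004393-4005206). They are copies of the genes of a translation elongation factor, a ribosomal protein and ferritin light chain. None of the 3 held an E-box or had an ATAC peak. The parent genes EEF1A1, RPL13A and FTL were at 1679, 797 and 1305 CPM per kb in DTMYC DMSO RNA. An exon of EEF1A1 itself scored 1422 and an exon of ACTB, the gene of beta-actin, scored 940. Exceptions in the top 10 were RPS19P1 at 1922, whose parent RPS19 was listed at 2.83 CPM per kb, and an intron of CCSER1 at 1121. Reads of near-identical copies can be split between genes by the authors' counting, so levels of such parents are uncertain. Over all 127 pseudogene members, the name matched a parent gene with an RNA level for 75, and 66 of these (88%) were in the top 10% of genes by CPM per kb. The share for parents of processed pseudogenes without a MYC region was not determined.

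The same was seen in exons of protein-coding genes, a class that also holds 6 of the 127 pseudogene midpoints. For members in a protein-coding exon with no ATAC peak, 50 of 88 genes (56.8%) were in the top 10% by RNA level, against 17 of 89 (19.1%) for exonic members with ATAC peaks in all 6 libraries. For intronic members the shares were 28 of 128 (21.9%) without ATAC peaks and 19 of 151 (12.6%) with them. These shares are over members of any library, and the part of RNA level in the peaks was not tested. Results given below for members in both libraries leave nearly all of these regions out.

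In DMSO library 3 alone, the top score was 490 at chr21:9825972-9826322, with its midpoint 56 bases from the start of MIR3687. Its ATAC scores were 4137 to 7691. Next were 234 in an intron of EXOC3L4 (chr14:103571393-103571929, ATAC peaks in 3 of 6 libraries) and 117 in an intron of GSE1 (chr16:85484920-85485395, no ATAC peak). None of the 3 held an E-box. The unplaced contig GL000220.1 held 21 members, of which 12 were in both libraries and 12 had no ATAC peak.

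ATAC-seq marks DNA that a transposase can reach, and it was not used to choose the members. ATAC peaks overlapped 59.5%, 54.4% and 45.1% of members in the DMSO libraries and 55.3%, 49.0% and 56.4% in the dTAG47 libraries. The lowest share was in the DMSO library with the fewest ATAC peaks, 28429, and the highest in the one with the most, 50983. The groups overlapped, with means of 53.0 ± 7.29% in DMSO and 53.6 ± 3.97% in dTAG47 (SD, n = 3 each). The difference of 0.534 percentage points was smaller than the spread between libraries (exact permutation test, two-sided, p = 0.9, with 0.1 the smallest p that 3 against 3 can give). For members in both ChIP libraries the means were 77.8 ± 8.86% and 79.4 ± 5.21% (exact permutation p = 0.8).

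The sign of the difference turned under several settings, and a design of this size cannot reach 0.05, so the test does not show that ATAC overlap stayed the same. The ATAC libraries were also from 24 h and the ChIP libraries from 4 h. An ATAC peak in all 3 DMSO libraries and no dTAG47 library was found for 2 of 1622 members (0.123%), and the opposite pattern for 3 (0.185%). Over all 77315 merged ATAC regions these patterns made up 0.296% and 0.167%. Peaks in all 6 libraries were found for 651 members (40.1%), and no peak in any for 577 (35.6%). The share with no ATAC peak was 11.1% for members in both ChIP libraries, 37.6% for DMSO library 1 alone and 47.4% for DMSO library 3 alone.

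Members overlapped ATAC peaks less often than every other class of MYC region. The share was lower by 40.9 percentage points (difference −40.9 ± 3.28, SD over 6 libraries) than for regions near starts that were lost, of which 39 of 2456 (1.59%) had no ATAC peak. It was lower than for the 74 kept distal regions (−30.5 ± 4.4) and the 285 kept regions near starts (−45.0 ± 4.02). Each difference was negative in 6 of 6 libraries (exact sign-flip permutation test, two-sided, p = 0.03125, and 0.03125 after Benjamini-Hochberg adjustment over 3 comparisons). The libraries of a condition share the same regions, so the test is over libraries only. Members were also narrower, with a median of 463.5 bases against 537, 707 and 858 for these classes in the order given. Wider regions have more room for an ATAC peak. The median scores in DMSO library 1 were 53 for members and 60, 196 and 224 for the others. With both sides restricted to regions in both ChIP libraries, the differences were −18.0, −5.51 and −20.0 points, and that from kept distal regions, lower in 5 of 6 libraries, no longer passed (adjusted exact permutation p = 0.0938, against 0.0469 for each of the others).

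**Figure D1:**
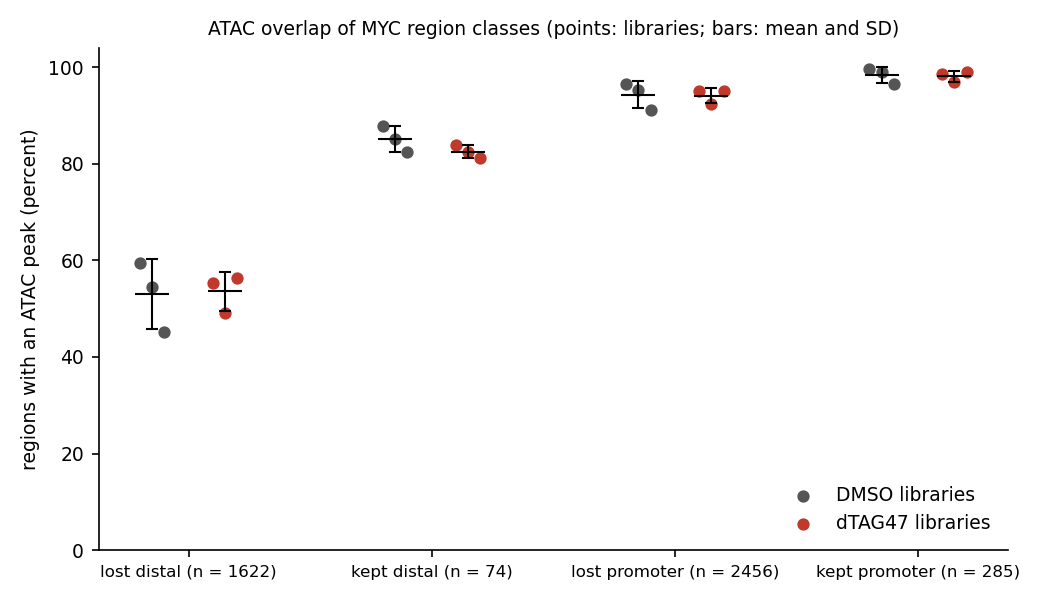
Percent of regions that overlap an ATAC-seq peak, for each class of MYC region; points are single ATAC libraries in DMSO or dTAG47, and bars give the mean and SD of 3 libraries. The lost distal regions sit between 45.1% and 59.5% in every library, below the other classes, and the DMSO and dTAG47 points overlap.

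Members with an ATAC peak were not among the weakest. Their median position in the ranked ATAC list of a library was the 66.2nd to the 79.7th percentile, below that of lost regions near starts (81.1 to 89.8).

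The E-box CACGTG was more frequent in members than in DNA beside them, which was not matched for GC content. Windows of 100 bases to either side of the midpoint held it in 278 of 1516 members with a reference sequence (18.3%, 16.4 to 20.4), against 74 of 2957 windows placed 10 kb to either side (2.5%, 1.97 to 3.13) and 1.80% of windows spaced every 100 kb over the genome. Members in both libraries held it in 65 of 194 cases (33.5%, 26.9 to 40.6), against 16.5% for library 1 alone and 14.3% for library 3 alone. Anywhere in the region it was found in 34.8% of all members and 67.5% of those in both libraries, though wider regions have more room for it. Members in both libraries and over 1 kb from every annotated start held it near the midpoint in 33 of 61 cases (54.1%, 40.8 to 66.9). Members with no ATAC peak held it in 54 of 565 cases (9.56%), and those open in all 3 DMSO libraries in 127 of 628 (20.2%). In lost regions near starts the share was 18.2%.

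**Figure D2:**
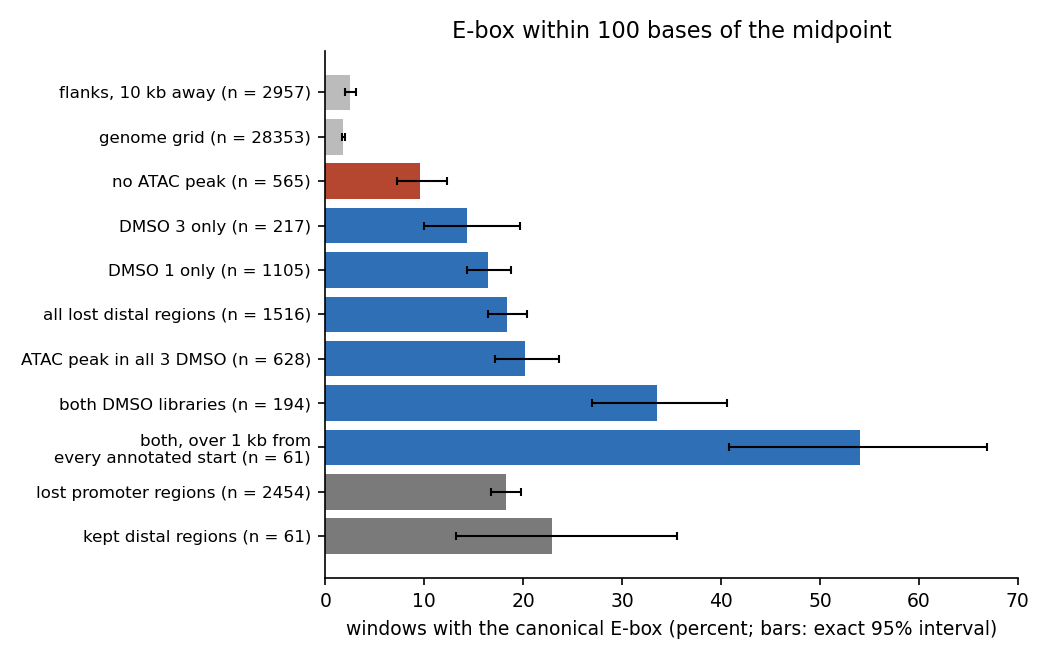
Percent of windows of 100 bases to either side of the midpoint that hold CACGTG, for subsets of the lost distal regions, other MYC regions and background windows; bars are shares and the lines on them exact 95% intervals. Members in both DMSO libraries and over 1 kb from every annotated start have the highest share, 54.1%, and the flanks have 2.5%.

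Other motifs were searched on both strands in the same windows. The variant CACGCG was in 13.3% of members against 1.56% of flanks, and the GC-rich SP/KLF motif GGGCGG in 28.1% against 7.91%. Both are rich in GC, as the members are (median 58.3%), and CACGTG is so to a lesser degree. The part of GC content in these shares was not tested. CATGTG was in 13.4% against 12.2%, the AP-1 motif TGANTCA in 6.40% against 5.41%, and a CTCF core motif in 2.64% against 0.845%. These are shares of sequences that hold the letters, not of sites shown to be bound.

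Some members lay close together. With gaps of at most 10 kb, 304 of 1482 members on the main chromosomes (20.5%) fell into 129 clusters, 27 of them with 3 or more members. The largest held 8 members each, at chr1:149803835-149833068 and chr6:27775243-27806831, and both are clusters of replication-dependent histone genes. In all, 39 members lay within 1 kb of the start of such a gene, 29 on chromosome 6 and 9 on chromosome 1. Of these, 36 were in DMSO library 1 alone, 2 in library 3 alone, and 1, at H2BC10 with scores of 93 and 50, in both. ATAC peaks overlapped 32 in all 6 libraries, and none of the 39 lacked one in every library. Their scores ran from 23 to 610 with a median of 171, and 2 held an E-box. Of the 37 histone genes, 17 were tested in RNA, of which none rose and 1 fell, H2AC25 (log2 fold change −0.49, edgeR adjusted p = 0.0417), against 4.27% and 4.44% of all genes. The median over the 17 was −0.07, and 1 of them, H3C14, had no count in any DTMYC library. Histone mRNAs of this kind carry no poly(A) tail, and these libraries were made after depletion of ribosomal RNA.

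The B box was in 10 of 1519 members (0.658%), and near the midpoint in 3 of 1516 (0.198%). It was in 5 of 2957 flanks (0.169%) and in 13 of 28353 windows spaced every 100 kb over the genome (0.0459%). Of the 10, 5 were open in all 6 ATAC libraries. Those 5 were the pair upstream of FCGR2A, another between them at chr1:161432687-161433207 that was called in DMSO library 3 alone with a score of 22, and 2 near BTNL9 at chr5:180524353-180524910 and chr5:180528546-180529038, which scored 128 and 75 in DMSO library 1 alone. Other clusters were 4 members around CCND1, the cyclin D1 gene, at chr11:69451165-69457310, of which none was open in all 3 DMSO libraries, and 4 at ACTB.

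The genes nearest to the members were taken as those with the closest PRO-seq start within 100 kb, 1079 in all. Of these 247 also had a DMSO MYC region within 1 kb of their own PRO-seq start, which is what own start means below, and 832 did not. Some of the 832, RRM2 among them, had a member at another annotated start of the same gene. Most, 924, were nearest to 1 member. The histone gene HIST1H3D had 8 and LOC100131289 had 7, followed by CXXC5 with 6, HIST2H2BF, LMX1B and FSCN1 with 5 each, and 9 genes, CCND1 among them, with 4. A nearest gene is a neighbour in the sequence, and these data do not show which gene a region acts on.

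PRO-seq measures RNA polymerase in the act of transcription. In gene bodies at 4 h, edgeR called none of the 934 nearest genes that were tested, and 0% of all 13397 genes. At an unadjusted p under 0.05 there were 89 nearest genes (9.53%) against 9.69% of all genes. The share was 15.4% among the 240 with a MYC region at their own start and 7.49% among the 694 without. The median log2 difference of the nearest genes was 0.01, against 0.02 over all genes. The count of 0 depended on the model. With the replicate number as a block, a pairing that the labels do not give, 35.3% of nearest genes and 32.5% of all genes were called. DESeq2 called 6 nearest genes (0.642%), all lower in dTAG47, namely CAMKK2, EIF4EBP1, SLC19A1, PARVB, NME1-NME2 and ST6GAL1. Of all genes it called 68 (0.508%), of which 62 fell and 6 rose.

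The 5 nearest genes with the smallest unadjusted p in edgeR were lower in both dTAG47 libraries than in both DMSO libraries, and each had an adjusted p of 0.389. CAMKK2, a kinase that activates AMPK, went from 139 and 121 to 83.8 and 73.8 CPM of gene body reads (log2 difference −0.72, SE 0.11). EIF4EBP1, a repressor of cap-dependent translation, went from 65.1 and 70.5 to 45.8 and 44.5. URI1, a prefoldin-like chaperone, went from 165 and 171 to 124 and 122, PARVB, a focal adhesion protein, from 186 and 204 to 127 and 142, and SLC19A1, the reduced folate carrier, from 69.8 and 58.2 to 40.9 and 41.1. The nearest member held at least 1 E-box for all 5, where 34.8% of all members held one.

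In RNA at 24 h, 30 nearest genes rose and 51 fell of 837 tested in DTMYC cells (edgeR, adjusted p under 0.05). The share called, 9.68%, was close to the 8.71% of all 13401 genes, of which 4.27% rose and 4.44% fell. The median log2 difference was 0.01, against 0.03 over all genes. The direction varied with MYC at the gene's own PRO-seq start, which was not tested. Of the 622 nearest genes with no MYC region there, 29 rose and 29 fell (4.66% each), which is near the share of all genes. Of the 215 with one, 1 rose and 22 fell (10.2%), and of the 2148 genes with a lost MYC region at their start, 18 rose and 249 fell (11.6%). The median log2 differences of these sets were −0.06 and −0.07 in DTMYC cells, against 0.03 over all genes. In parental cells they were −0.05 and −0.09, against −0.05 over all genes. There, 3 of the 215 rose (1.40%) and 5 of the 2148 (0.233%), against 0.104% of all genes, and none fell. By distance, in DTMYC cells, 13 rose and 30 fell within 10 kb (434 tested), and 17 rose and 21 fell from 10 to 100 kb (403 tested). With members open in all 3 DMSO libraries 15 rose and 24 fell of 386, and with members without any ATAC peak 12 rose and 16 fell of 311. For members in both ChIP libraries 3 rose and 9 fell of 133.

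**Figure D3:**
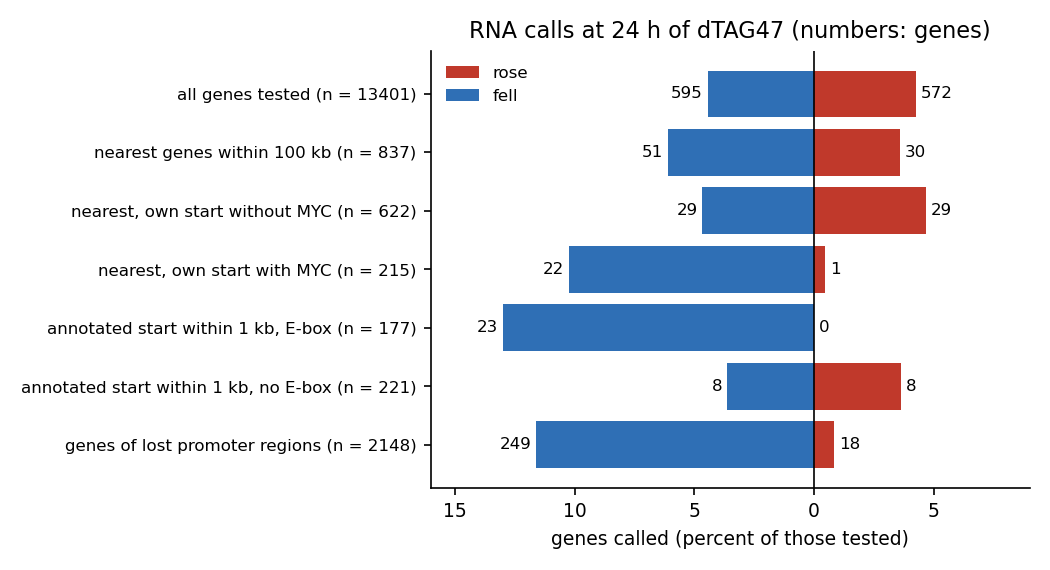
Percent of tested genes called in DTMYC RNA at 24 h of dTAG47 against DMSO, with genes that fell drawn to the left and genes that rose to the right; the numbers beside the bars are genes. Nearest genes with no MYC region at their own PRO-seq start are called at 4.66% in each direction, close to all genes. Those with one fell in 22 cases and rose in 1. A member at another annotated start of the gene is not counted as one at its own start.

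The number of calls moved several-fold with the libraries in the fit, and the third parental DMSO library stood apart, with a chi-square per degree of freedom of 142 and 131 against the other replicates of its group, which differed from each other by 38.8. It enters the estimate of the spread that all 12 libraries share. Without it, 106 nearest genes rose and 184 fell of 842 (34.4%), against 29.2% of all genes (12.7% rose and 16.6% fell), and 89 rose and 109 fell of the 627 with no MYC region at their own start. In parental cells, whose MYC is not degraded, 3 nearest genes rose and none fell of 837 (0.358%), against 0.127% of all genes (0.104% rose and 0.0224% fell), and 163 (19.5%) had an unadjusted p under 0.05, against 15.5%. These were DUSP6 (0.51), EP300 (0.54) and ZIC2 (0.52, log2 fold changes), each with MYC at its own start. DESeq2 called 32 (3.82%), against 2.25% of all genes. Without the third parental DMSO library, 112 nearest genes rose and 111 fell of 842 in parental cells (26.5%), against 20.1% of all genes, of which 1240 rose and 1478 fell of 13521. Without the third DTMYC DMSO library, 23 nearest genes were called in DTMYC cells (2.73%), against 2.53% of all genes, and with the 6 DTMYC libraries alone 358 of 818 (43.8%), against 36.5%. The response differed between the cell lines for 14 nearest genes of 837 (1.67%), 5 higher and 9 lower in DTMYC cells, against 1.19% of all genes (0.597% higher and 0.59% lower). Without the third parental DMSO library it differed for 186 of 842 (22.1%), against 17.9% of all genes.

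The 8 named falls were headed by SOX8, a transcription factor gene, at 14, 12.1 and 12.7 CPM in DMSO and 7.42, 7.20 and 7.20 in dTAG47 (log2 fold change −0.83, SE 0.10, edgeR adjusted p = 0.00116). Its member at chr16:1069617-1070075 lay 38038 bases away. SLC19A1 fell from 101, 93.7 and 102 to 65.0, 60.8 and 59.1 CPM (−0.68, SE 0.09, adjusted p = 0.0016). Its nearest member, at chr21:46975488-46976159, was in both ChIP libraries with scores of 116 and 58, and its own start also carried MYC. IMPDH1, the rate-limiting enzyme of guanine nucleotide synthesis, fell from 200, 175 and 208 to 129, 124 and 119 CPM (−0.65), and it too had MYC at its own start.

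CAMKK2 fell from 109, 105 and 105 to 69.1, 66.8 and 69.0 CPM (−0.64, SE 0.10, adjusted p = 0.00368), the same direction as in PRO-seq at 4 h. Its member at chr12:121733975-121734404, called in DMSO library 1 alone with a score of 93, held 2 E-boxes, was open in all 6 ATAC libraries and lay 1922 bases from the PRO-seq start but 287 from an annotated one. SNAPC4, a subunit of the complex that activates snRNA genes, fell from 76.5, 65.4 and 71.2 to 48.9, 43.9 and 43.7 CPM (−0.64). RCC1, the exchange factor of the Ran GTPase, fell from 247, 232 and 251 to 158, 158 and 161 CPM (−0.62, SE 0.07, adjusted p = 0.000628). NKAIN1 (−0.65) and ST6GAL1, a sialyltransferase gene (−0.61), completed the list, and the member near ST6GAL1 lay in the pseudogene RPS20P14 with no ATAC peak. The nearest member held an E-box for 6 of the 8 genes, all but RCC1 and ST6GAL1. Another member, within 1 kb of an annotated start of RCC1, held 2. Over all nearest genes 30 of the 51 falls had an E-box in a member, against 357 of all 837 tested.

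Among the 8 named rises, PLEKHA2 rose from 2.85, 2.77 and 2.52 to 4.83, 4.46 and 4.43 CPM (0.75, SE 0.10, adjusted p = 0.00196). It met the minimum of 5 CPM, set on the mean of all 12 libraries, only through the parental cells, where it was at 14.5 to 19.4 CPM. HFE, which regulates iron uptake and sits in the histone cluster of chromosome 6, rose from 10.6, 10.9 and 11 to 16.8, 17.1 and 17.7 CPM (0.67, adjusted p = 0.00156), and 4 members were nearest to it. SENP7, a SUMO protease gene, rose from 7.25, 9.19 and 8.20 to 13.7, 13.7 and 14.2 CPM (0.76, adjusted p = 0.0434), and its only member was in the pseudogene BTF3P16, 55826 bases away. ECM1 (0.66), ZFHX2 (0.65), VGF (0.58), H6PD (0.58) and MATN2 (0.57) also rose. In parental cells these genes, in the same order, had log2 differences of 0.32, 0.57, −0.02, 0.24 and 0.14, none of which passed the test. For ZFHX2 the response of DTMYC cells differed from that of parental cells by 0.08 (edgeR adjusted p = 0.834). The nearest member held an E-box for ECM1 alone. Over all nearest genes 7 of the 30 rises had one in a member, against 357 of all 837 tested. Leaving out the third DTMYC DMSO library ended the call of ZFHX2 and MATN2. Leaving out any of the 6 DTMYC libraries, or the first or the second parental dTAG47 library, ended those of SENP7 and VGF, and VGF was also lost without the second parental DMSO or the third parental dTAG47 library. The calls of the other 12 did not end without any 1 library.

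**Figure D4:**
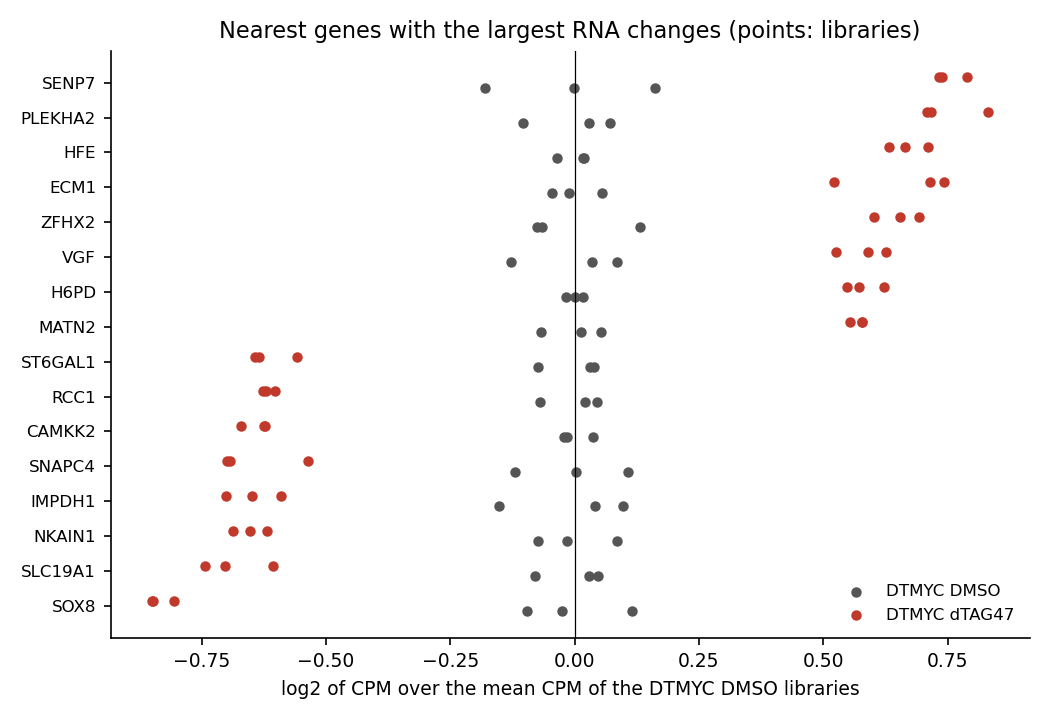
RNA level in each DTMYC library for the 16 named nearest genes, as log2 of CPM over the mean of the 3 DMSO libraries; grey points are DMSO and red points are dTAG47. The dTAG47 points of a gene lie on one side of its DMSO points, as the choice of these genes required, from SOX8 at the low end to SENP7 and PLEKHA2 at the high end.

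Of the nearest genes of the named regions, DUS3L fell (83.2, 71.8 and 82.2 to 59.1, 53.2 and 54.4 CPM, log2 fold change −0.51, edgeR adjusted p = 0.00706), and its own start carried MYC. The others that were tested did not pass, among them LARP1 at −0.15 (SE 0.08, adjusted p = 0.307), RRM2 at 0.03 (SE 0.06), ELFN1 at 0.12 (SE 0.09), STX2 at 0.16 (SE 0.09) and RABL5 at 0.26 (SE 0.09, adjusted p = 0.0866). CCND1, with 4 members, was at 0.07 (adjusted p = 0.584). Of the 14 genes of the MYC network listed, 12 were tested, none rose, and MAX (−0.30) and MXI1 (−0.54) fell, where 4.27% of all genes rose and 4.44% fell. MXI1, MNT and MGA, which encode partners or antagonists that share E-boxes with MYC, were each the nearest gene of 1 member.

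A further group was chosen after its values were seen. These were 398 tested genes with an annotated protein-coding start within 1 kb of a member, of which 8 rose and 31 fell. All genes gave 4.27% and 4.44%. Where the member held CACGTG, none of 177 rose and 23 fell (13%), with a median log2 difference of −0.07. Where it did not, 8 of 221 rose and 8 fell (3.62% each, near the share of all genes), with a median of 0.01. Among the nearest genes the same split gave 7 that rose and 30 that fell of 357 with CACGTG in a member (1.96% and 8.40%), and 23 and 21 of 480 without (4.79% and 4.38%). For the 272 with CACGTG and no MYC region at their own start, 7 rose and 18 fell (2.57% and 6.62%), with a median of 0.00. With genes that have MYC at their PRO-seq start left out, the counts were 0 and 19 of 151, and 8 and 5 of 173. Without the third parental DMSO library, 14 rose and 58 fell of the 177 (7.91% and 32.8%), and 26 rose and 37 fell of the 221 (11.8% and 16.7%), where all genes gave 12.7% and 16.6%. Among those that fell was MATK, a tyrosine kinase gene, at 76.1, 65.8 and 79.5 CPM in DMSO and 33.1, 34.1 and 31.6 in dTAG47 (−1.16, SE 0.11, adjusted p = 2.78e-04). Its member held 3 E-boxes and had ATAC peaks in 3 of 6 libraries. RNF220, whose member was named above, fell from 39.9, 38.6 and 45.9 to 33.8, 33.3 and 30 CPM (−0.36, adjusted p = 0.0342). TENM2, which rose by 0.40, was the rise whose member was in both ChIP libraries, and that member held no E-box.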

How the data were processed

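The peaks were listed by the authors for each ChIP-seq and ATAC-seq library, and each deposited peak carries a score, 10 times the −log10 q value in the convention of MACS2. The authors deposited raw read counts per gene for RNA-seq and read counts of gene bodies for PRO-seq, and a gene body density signal in the authors' table was not used. Among tools in the submitters' processing notes are MACS2, Bowtie2, STAR, featureCounts and cutadapt, with the build hg19, their versions not given in the sources used here. Totals were 27854207 to 54633745 counts per RNA library and 18209879 to 23256313 per PRO-seq library.

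Peaks were merged at an overlap of at least 1 base, and motifs were read from GRCh37 with pysam 0.24.0 in Python 3.11.15. The gene counts went into edgeR 4.0.16 under R 4.3.3 (filterByExpr, TMM, quasi-likelihood, two-sided, Benjamini-Hochberg adjustment over all genes, threshold 0.05), with 1 fit over the 12 RNA libraries and 1 over the 4 PRO-seq libraries. DESeq2 1.42.0 was an alternative. The fits were also run on simulated counts, and the outcome is not given here. Genes were joined by symbol and overlapping position, and 919 of 1079 nearest genes (85.2%) were in the RNA table. The named regions were the 10 in both libraries with the highest lower score and the top 3 of each library alone. The named genes were those nearest to these regions, the 8 largest called rises and falls whose mean over the 12 RNA libraries reached 5 CPM and whose DTMYC groups did not overlap, the 5 with the smallest p in PRO-seq, and MYC and MAX. Members and lists were chosen with earlier results of these data known. Leaving out processed pseudogenes was added after seeing the data. The gene of SMARCB1 is not analysed here.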

Additional observations from a re-analysis of the deposited data

Results flagged for a closer look

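In 6 of the 16 named nearest genes the response to dTAG47 differed between DTMYC and parental cells by a test of the difference itself (edgeR, adjusted p under 0.05), against 1.19% of all genes. The 6 were among genes chosen for their change in DTMYC cells, which enters the difference, so their number is no measure of how common such differences are. Over all nearest genes the test called 14 (1.67%), against 4 with DESeq2 size factors (0.478%), none without the second parental dTAG47 library and 186 without the third parental DMSO library (22.1%). The shares of all genes were 1.19%, 0.47%, 0.037% and 17.9% in the same order, so these calls rest on the libraries and scaling used. The difference of the log2 fold changes was 0.62 for HFE (adjusted p = 0.0385). It was −0.63 for SLC19A1 (adjusted p = 0.0397), −0.75 for SNAPC4 (adjusted p = 0.0397), −0.58 for RCC1 (adjusted p = 0.0206) and −0.54 for ST6GAL1 (adjusted p = 0.0447). It was 1.03 for PLEKHA2 (SE 0.14, adjusted p = 0.00828), which was at 2.71 CPM in DTMYC DMSO cells and 18.1 in parental ones and reached the minimum level of 5 CPM through the latter alone. In parental cells these 6 genes, in the same order, had log2 differences of 0.05, −0.05, 0.11, −0.04, −0.08 and −0.28, none of which passed the test.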

How the results depend on the processing

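The number of regions was 879 when every annotated transcript start was used and 849 at a score of at least 50, and leaving out 1 ChIP library gave 449 to 1668. The mean DMSO ATAC overlap was 45.3% when the ATAC peak had to cover the midpoint and 77.8% for members in both ChIP libraries. The difference of dTAG47 from DMSO changed sign to −0.432 points with the midpoint rule and −0.103 at an ATAC score of at least 50, and ran from −3.41 to 3.77 without 1 library. Against other classes, leaving out 1 ATAC library kept the direction but left too few libraries to pass 0.05 (differences of −41.7 to −39.9 points from lost regions near starts, −31.6 to −29.1 from kept distal ones, −45.9 to −43.7 from kept ones near starts), and −5.51 from kept distal regions in both ChIP libraries did not pass. The E-box share was 32.2% within 250 bases, 34.8% anywhere in the region, 33.5% for members in both libraries and 24.0% at a score of at least 50. The median distance was 1003 bases to any annotated start and 9401 for members in both libraries.

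For PRO-seq, DESeq2 called 6 nearest genes (0.642%), against 0.508% of all genes. For RNA in DTMYC cells, 43 nearest genes were called within 10 kb (9.91%) and 12 for members in both libraries (9.02%), against 8.71% of all genes. With the 6 DTMYC libraries alone 358 were called (43.8%), against 36.5% of all genes. Leaving out 1 library gave 23 (2.73%, against 2.53%), without the third DTMYC DMSO library, to 290 (34.4%, against 29.2%), without the third parental DMSO library. For parental cells the count was 1 for members in both libraries (0.752%) and 0 for genes without MYC at their PRO-seq start, against 0.127% of all genes. It was 1 with DESeq2 size factors (0.119%, against 0.0522%) and 32 with DESeq2 (3.82%, against 2.25%). With the 6 parental libraries alone it was 0, as over all genes, and without 1 library it was 0 to 223 (26.5%, against 20.1%). For the difference between the lines the counts were 6 within 10 kb (1.38%), 3 for both libraries (2.26%) and 8 for genes without MYC at their PRO-seq start (1.29%). All genes gave 1.19%. They were 4 with DESeq2 size factors (0.478%, against 0.47%), 41 with DESeq2 (4.9%, against 4.35%) and 8 without a filter on low counts (0.873%, against 0.568%). Without 1 library they were 0 to 186 (22.1%, against 17.9%). The cause of these changes was not tested beyond the fewer genes or libraries used. Leaving out midpoints in processed pseudogenes, chosen after seeing the data, gave 1495 regions and moved no result over its limit. In DTMYC RNA 25 of their 782 nearest genes rose and 49 fell (3.2% and 6.27%), against 4.27% and 4.44% of all genes. The named genes kept their direction in all 272 fits and their call in 251.

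With the replicate number as a block, PRO-seq gave 330 nearest genes (35.3%, 166 rose and 164 fell) and 4360 of all genes (32.5%). Parental RNA gave 0, against 0.0373% of all genes. The difference between lines gave 4 (0.478%, against 0.59%) and DTMYC RNA 83 (9.92%, against 8.51%). The numbers do not pair the samples by the labels, and the correlations of same-numbered deviations were 0.0846, −0.0110 and −0.0476 in DTMYC RNA, 0.324, 0.0483 and 0.367 in parental RNA, and 0.639 in PRO-seq with 2 pairs. In RNA, the first DTMYC DMSO sample and the first and the third parental DMSO samples correlated best with their own number, and the other 3 did not. Both PRO-seq DMSO samples did. With 2 samples in a group the deviations mirror each other, so neither match is independent of the other.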
